A study of Homo sapiens with 10 samples.

Results

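The 6 Iroquois homeobox genes, IRX1 to IRX6, were followed in bulk RNA sequencing data from human embryonic stem cells. They were found by matching the Ensembl identifiers of the count data to GENCODE 44 symbols, which gave 6 genes among 55841 identifiers counted. The cells, which the labels name HES9 and the study's text WA09, grew in mTeSR1 on Matrigel without feeder cells. Of 10 libraries, 5 came from the general population, which was not sorted, and 5 from the HHH fraction, sorted for the highest levels of the surface antigens GCTM-2, CD9 and EPCAM. The labels name no genotype, allele or agent for either population. Batch 1 held 2 general and 2 HHH libraries and batch 2 held 3 of each. The series' design text speaks of a protein kinase C inhibitor, but no label of a library carries it, so whether any culture was treated is not known here. All libraries came from 1 line, nothing states that replicates were separate cultures, and p-values then measure only the spread between these libraries. The general cells were not passed through the sorter, so sorting itself and the HHH state cannot be told apart.

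Iroquois proteins are transcription factors with a homeodomain of the TALE class, an atypical homeodomain with a loop of extra residues, followed by a short conserved motif called the Iro box. They help to set up the neural plate, to position boundaries within the developing brain and to pattern the heart, limbs and other tissues. In mammals the genes lie in a pair of clusters that arose by duplication of an ancestral cluster, and each gene of a cluster has a paralogue at the matching place in the other: IRX1 and IRX3, IRX2 and IRX5, IRX4 and IRX6. Genes within a cluster often share long-range enhancers. Several of them are expressed in the neural plate soon after it forms.

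In GENCODE 44 (GRCh38), IRX4 (ENSG00000113430, chr5:1877413-1887236, minus strand), IRX2 (ENSG00000170561, chr5:2745845-2751677, minus strand) and IRX1 (ENSG00000170549, chr5:3595832-3601403, plus strand) lay within 1.72 Mb on chromosome 5. The other cluster, on chromosome 16, spanned 1.05 Mb and held IRX3 (ENSG00000177508, chr16:54283304-54286787, minus strand), IRX5 (ENSG00000176842, chr16:54930865-54934485, plus strand) and IRX6 (ENSG00000159387, chr16:55324203-55330756, plus strand). All 6 are protein coding, and the counts cover whole genes, so exons and untranslated regions were not separated. In IRX1, 18.4% of exonic bases were shared with an antisense gene, ENSG00000259603. The other 5 members shared no exonic base with another counted gene.

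Of the 6 members, IRX1, IRX2 and IRX4 matched RefSeq promoter windows, and those of IRX3, IRX5 and IRX6 were not analysed here. The promoters of IRX1 and IRX2 are shown because these neighbours were both lower in HHH, as described below. Each run is the 250 bases before the gene's start in RefSeq (GRCh38.p14), 5′ to 3′ on the gene's strand, from chr5:3595582-3595831 (plus) for IRX1 and chr5:2751678-2751927 (minus) for IRX2. Capitals mark matches to the motifs searched on both strands.
IRX1: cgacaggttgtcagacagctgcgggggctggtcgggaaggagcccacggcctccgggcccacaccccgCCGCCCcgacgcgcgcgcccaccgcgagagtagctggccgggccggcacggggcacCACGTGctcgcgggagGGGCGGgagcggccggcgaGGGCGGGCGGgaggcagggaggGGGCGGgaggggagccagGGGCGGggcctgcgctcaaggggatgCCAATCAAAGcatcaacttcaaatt
IRX2: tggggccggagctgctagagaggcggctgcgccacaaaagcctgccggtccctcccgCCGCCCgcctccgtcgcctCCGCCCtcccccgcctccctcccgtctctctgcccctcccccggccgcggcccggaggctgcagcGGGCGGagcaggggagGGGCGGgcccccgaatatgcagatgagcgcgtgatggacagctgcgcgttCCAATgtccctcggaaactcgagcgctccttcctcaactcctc
The IRX1 window held 6 GC boxes (GGGCGG), 1 CCAAT box (CCAAT), 1 E box (CACGTG) and 1 TCF/LEF-type motif (ATCAAAG), and the CCAAT and TCF/LEF-type matches overlapped. The IRX2 window held 4 GC boxes and 1 CCAAT box. The TATA box (TATAAA), the octamer (ATGCAAAT) and the bicoid-type motif (TAATCC) were also searched and matched neither window. Among 35116 windows of this length, 42.6% held a GC box, 32.0% a CCAAT box, 6.34% the E box and 2.26% the TCF/LEF-type motif, while 10.7% held the TATA box, 1.63% the octamer and 5.62% the bicoid-type motif. Both windows were rich in CG dinucleotides, with 29 in IRX1 and 27 in IRX2 against a median of 11. Of 3 windows listed for IRX4, 1 held no match, 1 held 2 GC boxes and 1 held 3 GC boxes. A match describes these letters and not a bound site.

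Total counts ran from 47242595 to 78503395 per library. Levels are given as CPM (counts-per-million), taken over the TMM-scaled total of the library, and the floor of detection, set at 3 counts, was 0.0459 to 0.0686 CPM. This floor covers counting error only. All 8 markers of pluripotent cells were counted, and their summed level was 4596 to 6678 CPM in general and 4458 to 5903 CPM in HHH. Of these, 3 had an adjusted p under 0.05 in edgeR's test, but at less than the fold of 1.5 that a call also required. NANOG was higher in HHH by a log2 difference of 0.44, and SOX2 (-0.26) and PODXL (-0.40) were lower. The summed level of 7 neural ectoderm markers was 186 to 262 CPM in general and 129 to 246 CPM in HHH, of which NES made up most, and that of 8 mesoderm and endoderm markers was 0.766 to 1.47 and 0.936 to 2.59 CPM. The summed level of 7 fibroblast markers was 260 to 279 CPM in general and 290 to 343 CPM in HHH. Most of it was THY1, at means of 141 and 216 CPM, and COL1A2, at 105 and 86.4 CPM. In that list COL1A1 was called lower and THY1 higher, and DCN and LUM reached at most 1 and 4 counts in a library. The antigens CD9 and EPCAM had log2 differences of 0.29 (adjusted p = 0.195, edgeR) and 0.41 (adjusted p = 0.00645), under the fold required. By batch, CD9 was at -0.10 in batch 1 (adjusted p = 0.764, edgeR) and 0.55 in batch 2 (adjusted p = 0.00851). EPCAM was at 0.35 (adjusted p = 0.164, edgeR) and 0.46 (adjusted p = 0.0115). Neither difference between batches passed its test (adjusted p = 0.105 and 0.721, edgeR). The part of any of these lists in the changes below was not tested.

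HHH was set against the general population to ask how the Iroquois genes differ between the fraction regarded as self-renewing and the culture as a whole. IRX1, IRX2, IRX3 and IRX5 were lower in HHH, by 12.1-fold, 3.07-fold, 2.26-fold and 4.68-fold. IRX4 was not called, and IRX6 was too low to be tested. The 4 calls stood in a test in which 2.34% of 23552 genes were called lower. It was edgeR's quasi-likelihood test with batch as a term and Benjamini-Hochberg adjustment over all genes. The members were chosen with earlier results of these data known, so this share is background and not a test of them. IRX1 had the sixth lowest fold change of all tested genes and IRX5 ranked 24 from the lowest. In bulk RNA, fewer cells expressing a gene and less RNA per cell cannot be told apart.

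**Figure D1:**
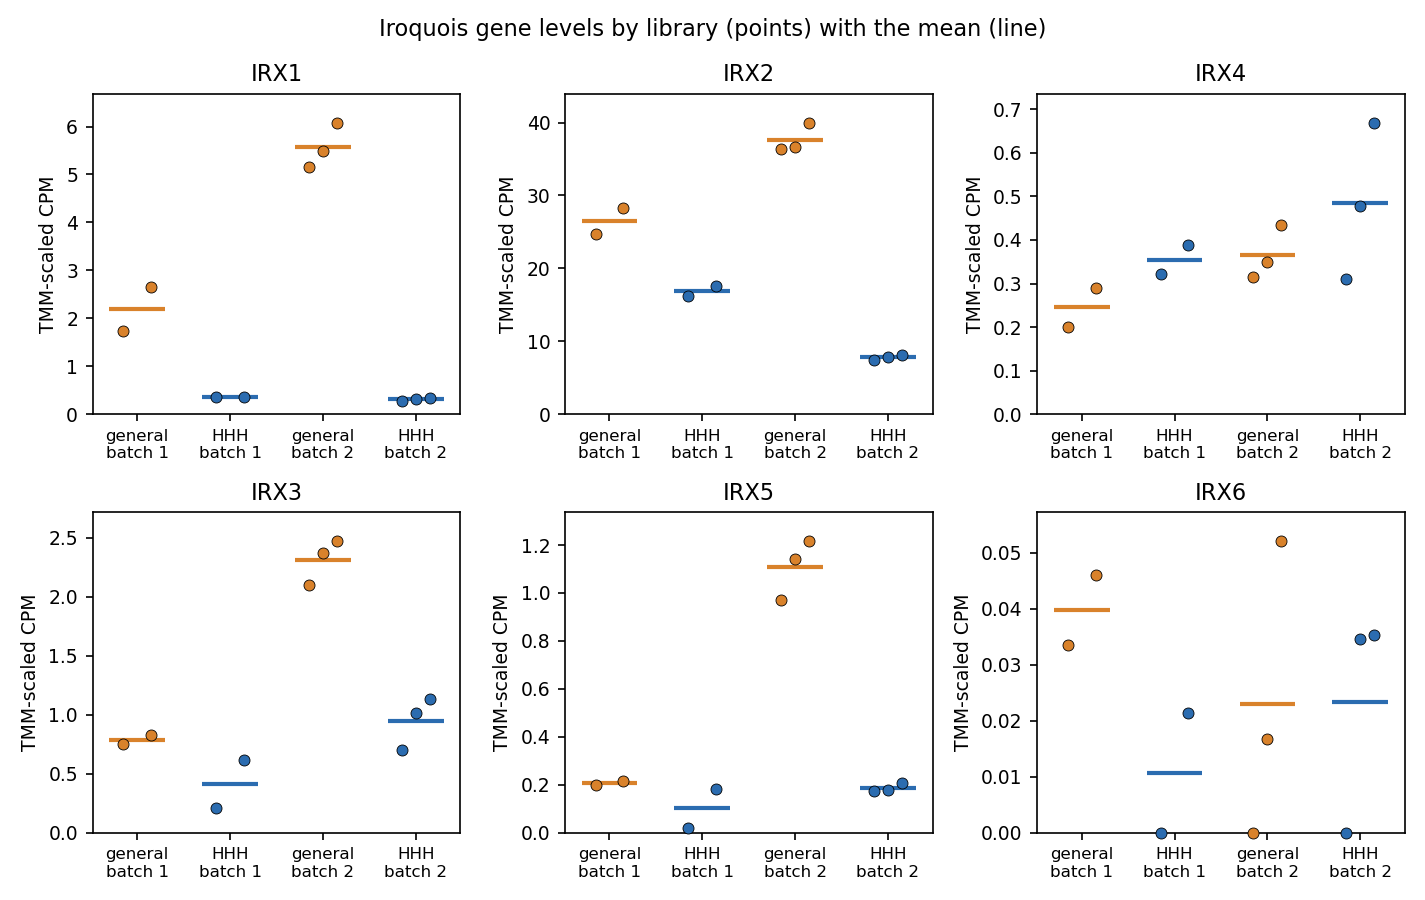
TMM-scaled CPM of each Iroquois gene (vertical axes, each from 0) in the 10 libraries, as points grouped by population and batch (horizontal axes), with lines at the means. The general libraries of batch 2 are the highest for IRX1, IRX2, IRX3 and IRX5, with IRX1 at 5.16 to 6.08 CPM, whereas IRX4 stays between 0.201 and 0.669 CPM and IRX6 below 0.06 CPM.

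In the chromosome 5 cluster, IRX1, which acts in early neural, heart and lung development, stood at 1.73 and 2.66 CPM in the general libraries of batch 1 and at 5.48, 5.16 and 6.08 CPM in those of batch 2. The HHH libraries were at 0.364 and 0.366 CPM in batch 1 and at 0.275, 0.346 and 0.318 CPM in batch 2. All 5 HHH libraries lay within a narrow band below every general library. In counts the gap was 113 to 365 against 16 to 20. The fitted log2 fold change was -3.60 (SE 0.25, 95% interval -4.14 to -3.06, adjusted p = 1.39e-06).

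IRX2, the member with the highest level, stood at 24.7 and 28.2 CPM in general batch 1, and at 36.3, 36.6 and 40.0 CPM in general batch 2. In HHH it was at 16.2 and 17.6 CPM in batch 1 and at 7.45, 7.86 and 8.11 CPM in batch 2. Here too no HHH library reached a general library, but the 2 batches of HHH also lay apart from each other. The log2 fold change over all libraries was -1.62 (SE 0.23, 95% interval -2.11 to -1.12, adjusted p = 0.000656).

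IRX4, known from the heart as a ventricular factor, was low throughout. The general libraries were at 0.291 and 0.201 CPM in batch 1 and 0.434, 0.316 and 0.350 CPM in batch 2. The HHH libraries were at 0.321 and 0.389 CPM in batch 1 and 0.669, 0.311 and 0.477 CPM in batch 2. The populations overlapped, with 12 to 25 counts in general and 15 to 39 in HHH. The log2 difference was 0.44 with a 95% interval of -0.09 to 0.98 (adjusted p = 0.330, edgeR), so a rise of nearly 1 log2 unit could not be told from none, while the bounds hold no fall of the size of IRX1 or IRX2.

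In the chromosome 16 cluster, IRX3, a factor of the neural tube and of fat tissue, stood at 0.827 and 0.754 CPM in general batch 1 and at 2.38, 2.47 and 2.10 CPM in general batch 2. HHH libraries were at 0.214 and 0.618 CPM in batch 1 and at 0.704, 1.02 and 1.13 CPM in batch 2. Within each batch every general library was above every HHH library, but 2 of the 3 HHH libraries of batch 2 lay above both general libraries of batch 1. The log2 fold change was -1.18 (SE 0.21, 95% interval -1.64 to -0.72, adjusted p = 0.00416). Without the batch term the adjusted p was 0.386, and tested against a change of 1.5-fold it was 0.197.

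IRX5, the partner of IRX3 in heart and limb development, stood at 0.199 and 0.218 CPM in general batch 1 and at 0.971, 1.14 and 1.22 CPM in general batch 2. HHH libraries were at 0.0214 and 0.183 CPM in batch 1, the former from 1 count, and at 0.206, 0.173 and 0.177 CPM in batch 2. As for IRX3 the populations were apart within each batch but not across batches, and in batch 1 the gap between the nearest libraries was small. The log2 fold change was -2.23 (SE 0.33, 95% interval -2.94 to -1.52, adjusted p = 0.000911), and without the batch term the adjusted p was 0.145.

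IRX6 had 0 to 3 counts in every library, at or under the floor in both populations, and failed the filter on low counts, so no fold is given. Counts were 3 and 2 in general batch 1, 3, 0 and 1 in general batch 2, 1 and 0 in HHH batch 1, and 0, 2 and 2 in HHH batch 2. At this depth a level up to the floor could not be told from absence. Among the tested members the filter, which required about 0.186 CPM of the unscaled library total in 5 libraries, was met by IRX5 in 4 general and 2 HHH libraries, and by the others in at least 4 libraries of each population.

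Counted over libraries, IRX1 and IRX2 were the 2 of 5 tested members with every general library above every HHH library, a pattern of 2.00% of all tested genes. Within each batch taken alone, 4 of 5 (IRX1, IRX2, IRX3 and IRX5) had it, against 5.42% of all tested genes. Over all tested genes the median log2 fold change was 0.02, so the scaling placed the bulk of genes near no change.

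The size of the change was then compared between batches. In batch 1, IRX1 and IRX2 were called lower, as were 0.887% of tested genes, with log2 fold changes of -2.58 (SE 0.27, adjusted p = 0.000178, edgeR) and -0.65 (SE 0.11, adjusted p = 0.00600). The call of IRX2 in batch 1 was lost when batch 1 was fitted alone (adjusted p = 0.0948) and without HHH batch 1 replicate 2 (adjusted p = 0.0621). IRX3 and IRX5 had log2 differences of -0.94 (adjusted p = 0.224) and -1.04 (adjusted p = 0.390) in batch 1. Without HHH batch 1 replicate 3, the value of IRX3 there was -1.87 (adjusted p = 0.0359), and that of IRX5 ran from -3.15 to -0.18 over the libraries left out. In batch 2, where 3.10% of tested genes were called lower, IRX1, IRX2, IRX3 and IRX5 were called, with log2 fold changes of -4.15, -2.27, -1.28 and -2.57. IRX4 was at 0.52 in batch 1 and 0.41 in batch 2, with adjusted p of 0.592 and 0.431.

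**Figure D2:**
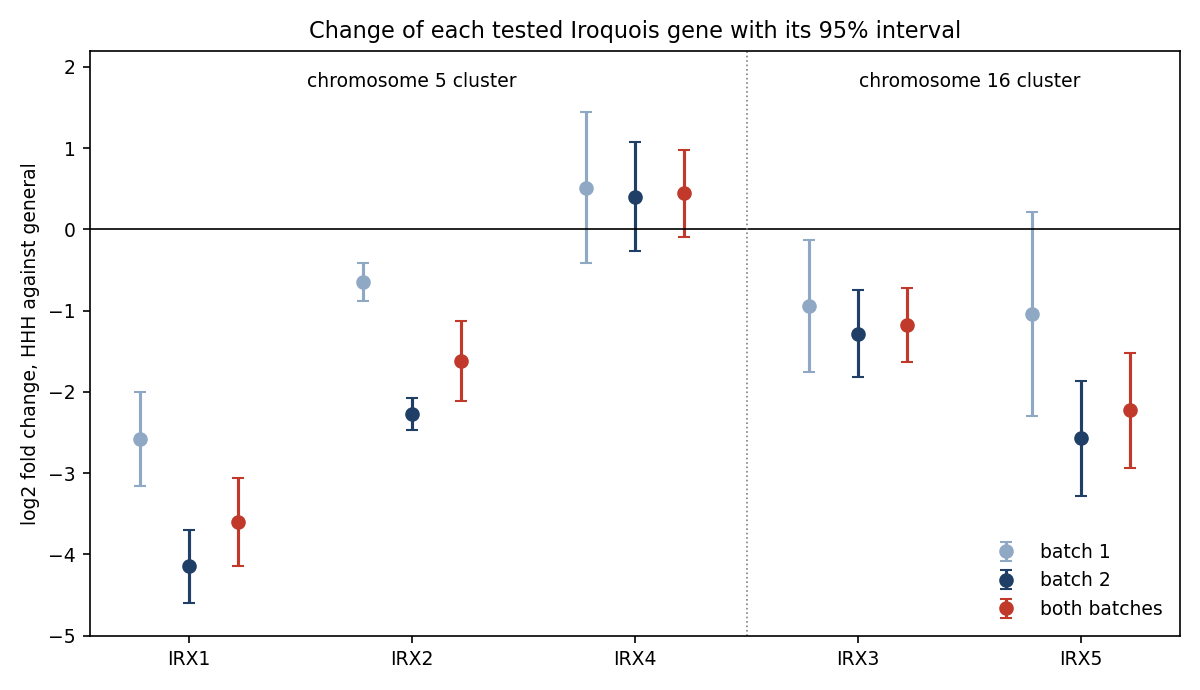
Log2 fold change of HHH against general (vertical axis) for the 5 tested Iroquois genes, in batch 1, in batch 2 and over both batches, with 95% intervals as bars from edgeR's quasi-likelihood fits. IRX2 moves from -0.65 in batch 1 to -2.27 in batch 2 with intervals that are far apart, and the intervals of IRX4 hold 0.

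The difference between the batches was itself tested, and 0.777% of tested genes passed, 183 in number. This count fell to 25 without general batch 2 replicate 3. It fell to between 86 and 114 without any 1 HHH library of batch 2, or general batch 2 replicate 1 or 2. Leaving out a library of batch 1 moved the count up or down, by which library it was. Such a fit keeps 1 library in a group, so those counts are not given. IRX2 was the member that passed, with a change lower in batch 2 by a log2 difference of -1.62 (SE 0.14, 95% interval -1.92 to -1.32, adjusted p = 6.76e-05), and it passed without each library in turn. IRX1 had a like difference of -1.57 (SE 0.37) that did not pass (adjusted p = 0.0714), and did pass without general batch 1 replicate 2 (adjusted p = 0.0299). With the GC trend removed it was -0.98 (adjusted p = 0.296, edgeR), and with the replicate block as well it was -0.79 (adjusted p = 0.483). For IRX5 the difference was -1.53 (SE 0.73, adjusted p = 0.277), for IRX3 -0.34 (SE 0.46, adjusted p = 0.717) and for IRX4 -0.11 (SE 0.53, adjusted p = 0.932). For these 3 genes its sign changed under some alternatives.

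Fitted over both populations at once, batch 2 against batch 1 gave log2 differences of 0.92 for IRX1, 1.41 for IRX3 and 1.98 for IRX5, all called as were 21.5% of tested genes, and of -0.31 for IRX2 (adjusted p = 0.287, edgeR) and 0.51 for IRX4 (adjusted p = 0.123). Without general batch 1 replicate 1 the value of IRX1 was 0.58 (adjusted p = 0.0669). The same contrast was then read within each population, where 22.9% of tested genes were called in general and 18.5% in HHH. In general, IRX1 was 2.54-fold, IRX3 2.92-fold and IRX5 5.29-fold higher in batch 2 (adjusted p = 0.000130, 0.000931 and 0.000245, edgeR). IRX2 was 1.42-fold higher in batch 2 in general (adjusted p = 0.00114), under the fold required for a call. In HHH, by contrast, IRX2 was 2.16-fold lower in batch 2 (adjusted p = 3.69e-06), and IRX3 was 2.30-fold higher (adjusted p = 0.0175). IRX1 did not pass in HHH, with a log2 difference of -0.22 (95% interval -0.89 to 0.45), and neither did IRX5 with 0.88 (-0.33 to 2.08). IRX4 passed in neither population, at 0.56 and 0.45. Batches of these libraries are named by the labels and no source says what sets them apart.

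Levels of different genes were compared per kb of exon, using GENCODE 44 exon lengths of 2080 bases for IRX1, 3399 for IRX2, 2935 for IRX3, 2974 for IRX4, 2842 for IRX5 and 2952 for IRX6. In the general population the order was IRX2 at 9.76 ± 1.89 CPM per kb (SD, n = 5), IRX1 at 2.03 ± 0.917, IRX3 at 0.581 ± 0.289, IRX5 at 0.264 ± 0.176, IRX4 at 0.107 ± 0.0285 and IRX6 at 0.01004 ± 0.00724. IRX2 stood apart from IRX1 in every library, and IRX4 from IRX6. The ranges of the neighbours IRX1 and IRX3, IRX3 and IRX5, and IRX5 and IRX4 overlapped over both batches. Within batches the sole overlap among general libraries was that of IRX4 and IRX5 in batch 1.

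In HHH the order changed. IRX2 was still the highest at 3.36 ± 1.47 CPM per kb (SD, n = 5), 13.4 times the next gene, which was IRX3 at 0.251 ± 0.123. IRX1 followed at 0.160 ± 0.0184, and its range overlapped those of IRX3 above it and of IRX4 below it, which was at 0.146 ± 0.0496. IRX5 came next at 0.0535 ± 0.0261 and IRX6 last at 0.00619 ± 0.00595, and their ranges overlapped. Batches differed here. In HHH batch 1 the gene next to IRX2 was IRX1, 28.3 times lower, and in HHH batch 2 it was IRX3, 7.09 times lower, with IRX1 at rank 4.

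**Figure D3:**
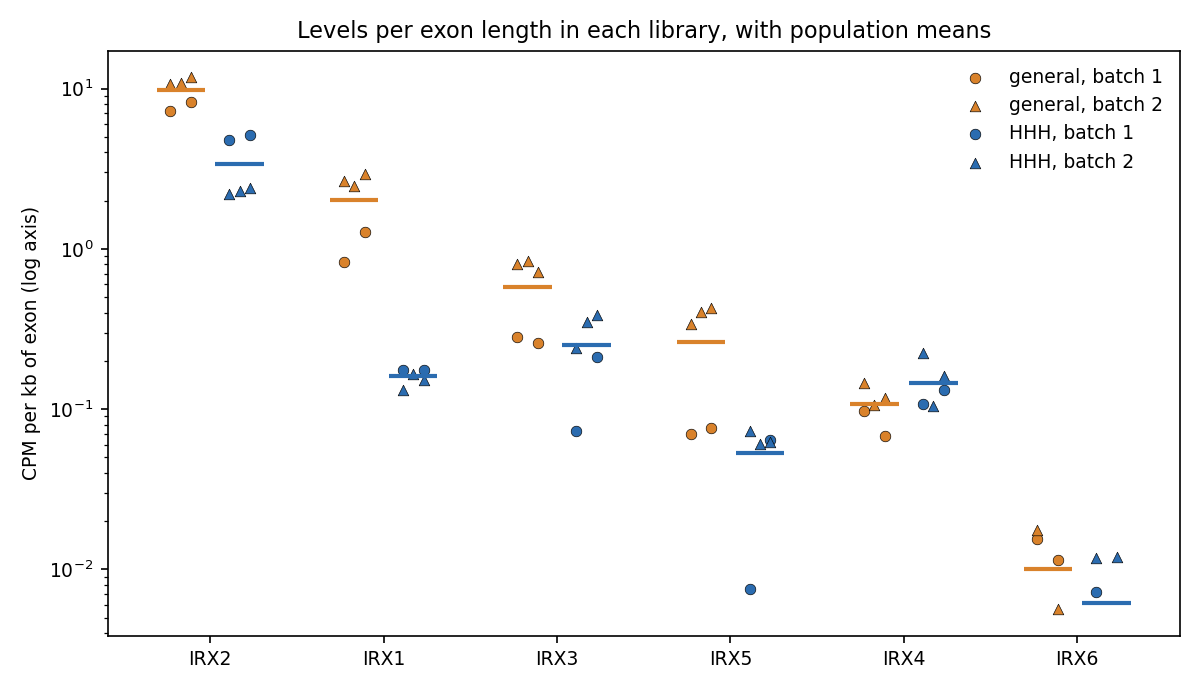
CPM per kb of exon (log axis) of each Iroquois gene in each library, orange for general and blue for HHH, circles for batch 1 and triangles for batch 2, with lines at the population means. IRX2 is highest in both populations at means of 9.76 and 3.36, IRX1 falls from 2.03 to 0.160, and the libraries of IRX6 at 0 counts are not drawn.

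Summed per kb, the 3 genes on chromosome 5 gave 8.20 to 14.8 CPM per kb in general libraries and 2.55 to 5.47 in HHH libraries. The 3 genes on chromosome 16 gave 0.345 to 1.24 and 0.0878 to 0.459. IRX2 made up 79.3 to 88.7% of the chromosome 5 sum in general and 86.0 to 94.4% in HHH. The share of IRX1 was 10.1 to 19.7% in general and 3.21 to 6.43% in HHH, ranges that did not meet. On chromosome 16, IRX3 made up 62.3 to 76.7% of the sum in general and 76.6 to 83.9% in HHH. The chromosome 5 sum was 22.3 to 27.99 times that of chromosome 16 in general batch 1 and 19.9 to 57.5 times in HHH batch 1, against 10.7 to 12.9 and 5.88 to 8.16 times in batch 2.

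The clusters were set against each other through the paralogue pairs, as the log2 ratio of CPM + 0.5 within each library. The log2 ratio of IRX1 to IRX3 was 0.75 and 1.34 in general batch 1 and 1.06, 0.93 and 1.34 in general batch 2. In HHH it was 0.27 and -0.37 in batch 1 and -0.64, -0.85 and -0.995 in batch 2. All HHH libraries were below all general libraries, so that IRX1 fell relative to IRX3. The batch-adjusted difference was -1.60, with -1.09 in batch 1 and -1.93 in batch 2 (n = 5 and 5, exact permutation within batch, two-sided, p = 0.0167, also after adjustment for 2 pairs). This p is the smallest that 120 arrangements allow. The size moved with the pseudocount, to -2.08 with 0.1 CPM and -0.94 with 2 CPM (exact permutation p = 0.0167 for both). With replicates paired by number the difference was -1.72 over 4 pairs and the exact p = 0.125, the smallest for 4 pairs.

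The log2 ratio of IRX2 to IRX5 was 5.17 and 5.32 in general batch 1, 4.64, 4.50 and 4.56 in general batch 2, 5.001 and 4.73 in HHH batch 1, and 3.49, 3.64 and 3.67 in HHH batch 2. The difference was -0.74 (exact permutation within batch, two-sided, p = 0.0167, also after adjustment), but it rested on the pseudocount. With 0.1 CPM in place of 0.5 it was -0.07 with p = 0.800 by the same exact permutation test, and with 2 CPM it was -1.11 with p = 0.0167. IRX5 itself was at 0.0214 to 0.206 CPM in HHH. The fitted log2 fold changes had the other order, -1.62 for IRX2 and -2.23 for IRX5. A difference between these paralogues is therefore not settled by these counts. For IRX4 and IRX6 the ratio was 0.39 to 0.76 in general and 0.60 to 1.23 in HHH, and it was not tested because IRX6 was at the floor.

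**Figure D4:**
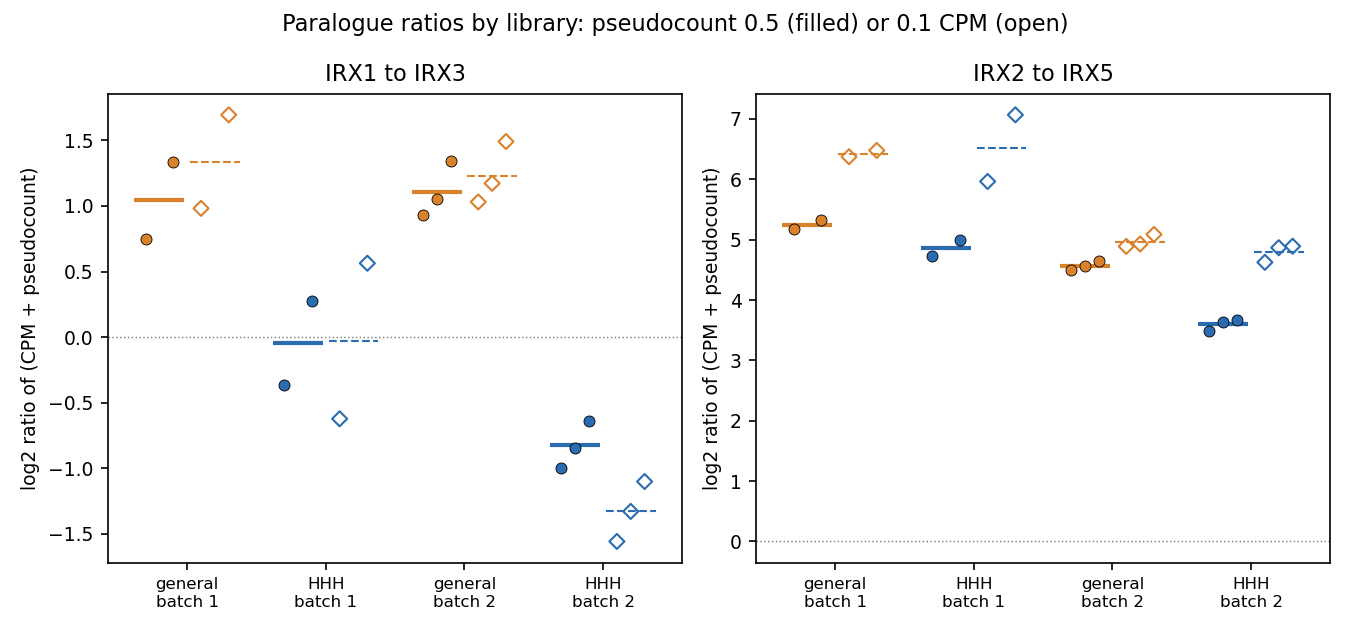
Log2 ratio of IRX1 to IRX3 and of IRX2 to IRX5 (vertical axes) in each library by population and batch, with 0.5 CPM (filled, solid mean) or 0.1 CPM (open, dashed mean) added to both genes. The IRX1 to IRX3 ratio is lower in HHH under both, by 1.60 and 2.08, whereas the IRX2 to IRX5 ratio differs by -0.74 with 0.5 CPM and by -0.07 with 0.1 CPM.

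The genes around each cluster were examined within 500 kb of its ends. On chromosome 5, 12 of 32 counted neighbours were tested and edgeR called 2, both lower, where 2.34% of all tested genes were called lower. The count is a description, since 1 of the 2 was kept by the filter through its general libraries alone. DESeq2 called 3 lower and limma voom 2. These were IRX2-DT (also named C5orf38), a divergent transcript whose gene begins 0.454 kb from IRX2, and ENSG00000259603, the antisense gene that overlaps IRX1. IRX2-DT was at 1.19 to 2.43 CPM in general and 0.154 to 0.728 CPM in HHH, a change of -2.30 on the log2 scale (SE 0.35, adjusted p = 0.00115, edgeR). Its change was -0.999 in batch 1 and -3.30 in batch 2, and this difference passed its test (adjusted p = 0.0248). The antisense gene was at 0.260 to 0.989 CPM in general and 0.0214 to 0.0883 CPM in HHH, from 17 to 58 counts and from 1 to 5 counts. It met the filter in 5 general libraries and 0 HHH libraries, so no fold is given and its call is not read as support for that of IRX1. Whether counting used strand is not given in the sources used here, so its reads and those of IRX1 cannot be told apart where they overlap. The median log2 fold change of the 12 tested neighbours, with the antisense gene among them, was -0.15, against 0.02 for all tested genes.

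On chromosome 16, 5 of 24 counted neighbours were tested and 0 were called by edgeR, DESeq2 or limma voom, with a median log2 fold change of 0.05. At an unadjusted p under 0.05 in edgeR 1 of them was lower and 1 higher. CRNDE, a long noncoding RNA 1.68 kb from IRX5, was at 1.24 to 2.42 CPM in general and 1.12 to 1.93 CPM in HHH, so that the populations overlapped, with a log2 difference of -0.38 (SE 0.17, adjusted p = 0.206, edgeR). FTO, an RNA demethylase whose introns hold enhancers that contact IRX3, was at 43.1 to 54.4 CPM in general and 41.6 to 50.1 CPM in HHH, a log2 difference of -0.06 (adjusted p = 0.715). The matrix metalloproteinase gene MMP2 had a difference of 0.22 (adjusted p = 0.168), the lipid enzyme gene LPCAT2 of 0.05 (adjusted p = 0.856) and the ciliary gene RPGRIP1L, beyond FTO, of 0.08 (adjusted p = 0.531). Whether CRNDE and IRX5 changed differently was not tested.

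**Figure D5:**
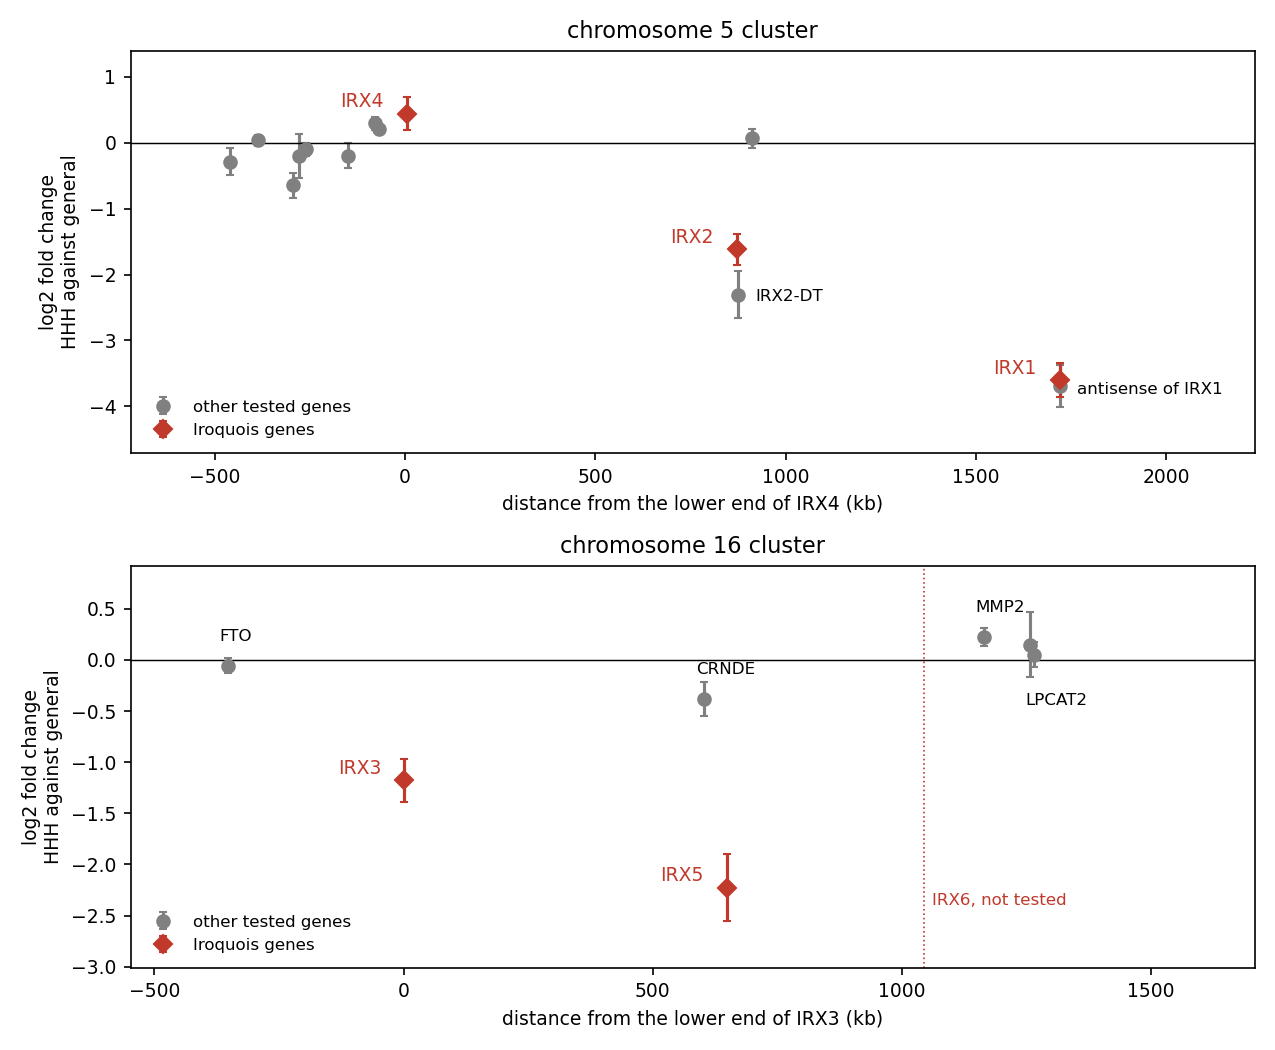
Log2 fold change of HHH against general (vertical axes, bars are standard errors) of the tested genes around each cluster by distance in kb along the chromosome, with Iroquois genes as red diamonds. IRX2-DT lies at -2.30 beside IRX2 and CRNDE at -0.38 beside IRX5. The antisense gene of IRX1 is drawn lowest, but it passed the filter through its general libraries alone, so its position is not read as a fold.

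Other TALE class genes, whose proteins share this type of homeodomain, were read as a list of 12, chosen with earlier results of these data known. Of 11 that were tested, 2 were called lower (2.34% of all tested genes were), 0 higher (1 at an unadjusted p under 0.05 in edgeR, 0 called by DESeq2 or limma voom) and 9 were not called, with a median log2 fold change of -0.17. MEIS2, a cofactor of HOX and PAX proteins, had a change of -1.66 on the log2 scale (SE 0.43, adjusted p = 0.0362, edgeR) at a mean of 0.325 CPM in general, and PKNOX2, a relative of the MEIS genes, of -1.02 (SE 0.14, adjusted p = 0.000511). MEIS2 met the filter in 4 general libraries and 1 HHH library, so it was kept mainly through the population where it was high. Its change was -1.27 in batch 1 (adjusted p = 0.430, edgeR) and -1.83 in batch 2 (adjusted p = 0.0430). The difference between batches did not pass its test (adjusted p = 0.792, edgeR).

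Genes that pattern the neural plate were read as a list of 24, of which 13 were tested. Here 6 were called lower, 1 higher and 6 were not called, against 2.34% of all tested genes called lower and 0.637% higher. The median log2 fold change was -0.51. The list was chosen with earlier results of these data known, so these counts are a description and not a test of the list. The counts and the median include LHX5, ZIC1 and SOX1, which passed the filter mainly through the general libraries. LHX5, a LIM homeobox gene of the anterior neural plate, had the largest tested change at -5.57 (SE 0.41, adjusted p = 1.63e-06, edgeR). ZIC1, a zinc finger factor of the neural plate border, followed at -2.46 (SE 0.32), FEZF1 of the forebrain at -2.32 (SE 0.14), and OTX2 of the forebrain and midbrain at -1.47 (SE 0.11). HESX1 of the anterior neural plate and SOX1 of early neuroectoderm were at -1.45 (SE 0.18) and -1.39 (SE 0.37). LHX5 and ZIC1 met the filter in 5 general libraries and 1 HHH library, so the general libraries alone were enough to keep them. In HHH, LHX5 had 3 to 16 counts and ZIC1 4 to 16. SOX1 met the filter in 4 and 1, so it was kept mainly through the population where it was high. The calls of these 3 are not read as support for those of the Iroquois genes. The 1 gene called higher, named after its values were seen, was GBX2, a factor of the anterior hindbrain, at 1.12 (SE 0.23, adjusted p = 0.00881). SIX6, an eye and forebrain factor also named after its values were seen, had a difference of 1.05 that did not pass (adjusted p = 0.0662, edgeR). In this list 3 genes were higher at an unadjusted p under 0.05 in edgeR, and DESeq2 called 2 higher. PAX6, with a difference of -0.15 (adjusted p = 0.665), and PAX3, with -0.08 (adjusted p = 0.890), were not called. Of the genes not tested, FEZF2 was at 0 to 0.0347 CPM in general and 0.0343 to 5.22 CPM in HHH. It met the filter in 0 general and 2 HHH libraries. SIX3 went the other way, at 0.151 to 0.850 CPM in general and 0 to 0.0691 CPM in HHH. Both were named after their values were seen, and no fold is given for either. The summed level of the list was 145 to 233 CPM in general and 55.7 to 75.9 CPM in HHH.

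The course of the members over the 10 libraries was compared after the mean of each batch was removed from log2(CPM + 0.5). These correlations hold the difference between populations itself, and the points share library and depth, so they are a description. Among IRX1, IRX2, IRX3 and IRX5, Pearson's r was 0.904 to 0.981, highest for IRX2 and IRX5 in different clusters, and next for IRX1 and IRX2 at 0.979. IRX4 had r of -0.567 to -0.434 with these 4 genes, including -0.510 with its neighbour IRX2. With batch means left in, the r of IRX2 with IRX5 was 0.712 and that of IRX2 with IRX3 was 0.526. The highest were then pairs within a cluster, IRX3 with IRX5 at 0.929 and IRX1 with IRX2 at 0.912. The order of the pairs thus depends on how batch is handled. The 0.5 CPM added was also above every HHH value of IRX5, at 0.0214 to 0.206 CPM.

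Among 13989 protein-coding genes averaging 0.5 CPM or more, those most like IRX1 were RHBDL3 (r = 0.995), the cholesterol transporter gene ABCA1, the TNF receptor family gene TNFRSF19, CELF2 and GPR162, all with r of at least 0.988. TNFRSF19 had a log2 fold change of -2.96, the nearest of these to IRX1. Those most like IRX2 were SEMA4A (r = 0.996), the neural factor SOX21, TEKT2, the receptor tyrosine kinase gene RET and FAM20A. For IRX3 they were SERPINB9 (r = 0.964), the TALE gene PKNOX2, CNTNAP5, TOX and the cell cycle inhibitor gene CDKN1C. For IRX5 they were AUTS2 (r = 0.987), SH3BP4, the dopamine receptor gene DRD4, CHFR and ZFP36L2. The nearest genes to IRX4 were ENPEP (r = 0.915), MEGF9, BCL2L14, SRGAP2C and SCLY, with r down to 0.846. With batch means left in, the r of SOX21 with IRX2 was 0.440 and that of PKNOX2 with IRX3 was 0.430, while that of TNFRSF19 with IRX1 stayed at 0.992.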

How the data were processed

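RNA of 10 libraries was made with Qiagen kits and a TruSeq RNA library. The submitters' processing notes name GRCh37, CASAVA 1.8.2, R 3.2.2 and limma 3.26.9. The aligner, counter and annotation are not given in the sources used here. The authors deposited whole fragment counts per Ensembl gene, not normalized, and a table of log2 values, a score that per its name is log2 of TMM-scaled RPKM. In the deposited log2 values the batch means of the 27641 genes with values in every library differed by at most 9.24e-14, so they served as an alternative only.

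Of 55841 identifiers, 88.5% matched GENCODE 44, which gave symbols, exon lengths and GRCh38 coordinates. Since the files hold no coordinates, none were converted. Genes were kept by filterByExpr (minimum count 10), which left 23552. Counts were scaled by TMM and tested with edgeR 4.0.16 in R 4.3.3 (quasi-likelihood F test, batch and population as terms, two-sided, Benjamini-Hochberg adjustment), and calls required an adjusted p under 0.05 and a fold over 1.5. Values within batches and their difference came from a fit with 4 means. The SE is the log2 fold change divided by the square root of F. The fit was tested on simulated data. Paralogue ratios were tested by exact permutation within batch (Python 3.11.15, numpy 2.4.6).

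Libraries of equal replicate number within a batch had r over 0.1 on edgeR's log CPM (0.113 in batch 1 and 0.239, 0.143 and 0.113 in batch 2). Pairing by number was therefore used as an alternative. With 2 libraries per population, every r in batch 1 had to be 0.113 or -0.113. General replicate 1 and HHH replicate 3 also had 0.113 there, so batch 1 cannot show whether equal numbers are pairs. On log2(CPM + 0.5) the lowest was 0.0883. The pairing comes from the numbers in the labels' titles.

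Alternative settings left out the batch term or used the replicate block, RLE, upper quartile or no scaling, other filters, DESeq2 1.42.0, limma 3.58.1 with voom or on the deposited log2 values, a test against 1.5-fold, removal of a GC trend (spline, 5 degrees of freedom), each batch alone, other pseudocounts and each library left out. The batch contrast within each population was added after the data had been seen.

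The members and all lists were chosen with earlier results of these data known. Named genes were all members, called neighbours within 500 kb and 6 neighbours of choice, called TALE genes, up to 6 called patterning genes by size of change, and the 5 genes most like each tested member.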

Additional observations from a re-analysis of the deposited data

Results flagged for a closer look

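Among the 12 groups of 5 libraries, 1 gene in 1 population each, a library far from the others was found in 1. IRX5 in HHH batch 1 replicate 2 was at 0.0214 CPM, from 1 count, with the other HHH libraries at 0.173 to 0.206 CPM, and its gap was 0.820 of the whole range. Chance gives a gap over 0.71 of the range, the threshold of this flag, in about 1 of 20 groups.

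The change of IRX2 in HHH differed between batches, by a log2 difference of -1.62 between the change in batch 2 and that in batch 1.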

How the results depend on the processing

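The changes of IRX1 and IRX2 over all libraries kept their direction and stayed past the adjusted p of 0.05 under all 23 alternatives, at log2 values of -3.87 to -3.44 and -1.90 to -1.49, and IRX4 passed under none of 22, at adjusted p of 0.157 to 1.00. Without the batch term IRX3 (-1.20) and IRX5 (-2.26) lost their calls, as did IRX3 in the test against 1.5-fold (-1.18). IRX4 and IRX5 gave no value under the filter of 1 CPM. The number of genes called, 701, was 151 without the batch term, 1114 without a filter and 132 in the test against 1.5-fold. In batch 1, the value of IRX2 was -0.65 with the batch fitted alone, and over the libraries left out it ran from -0.74 to -0.55, and that of IRX3 from -1.87 to -0.36. Where batch 1 kept 1 library of a population, that library was assumed to vary like the others.

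The difference between batches passed for IRX2 under all 15 alternatives, at -1.74 to -1.36. With the replicate block it was 0.51 for IRX3 and 0.65 for IRX5, with the GC trend removed it was 0.051 for IRX3 and 0.59 for IRX4, and with both it was 0.83 for IRX3, 0.31 for IRX4 and 0.81 for IRX5, all opposite in sign to the main value and none past the threshold. Leaving out libraries gave -1.91 to -1.29 for IRX1, -0.93 to 0.59 for IRX3, -0.41 to 0.13 for IRX4 and -2.38 to 0.59 for IRX5. The cause was not tested. With replicates paired, the ratio of IRX1 to IRX3 differed by -1.72 and that of IRX2 to IRX5 by -0.81, both at the smallest p of 4 pairs, and the block changed no other call. The ratio of IRX2 to IRX5 differed by -0.068 with a pseudocount of 0.1 CPM.

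Batch 2 against batch 1 was 0.013 for IRX2 and 0.84 for IRX4 (past the threshold) with library size only. In general libraries alone it was 0.51 for IRX2, and in HHH alone -0.22 for IRX1, -1.11 for IRX2 and 0.88 for IRX5. For IRX1 it was 0.58 to 1.09 over the libraries left out.

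At 0 to 39 counts for IRX4, IRX6 and, in HHH, IRX5, depth limits what these libraries show of those genes.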
